A study of Mus musculus with 4 samples.

Results

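The baseline of wild type rib chondrocytes was read from a single array, 1 of the 4 in the series, chosen by its label as the array of mice with intact *Xbp1* and no mutation of *Matn3*. All 18193 genes that had a probe set of their own on the array were ranked by linear signal, and the brightest probe set stood for a gene. The chondrocytes came from the costochondral cartilage of C57BL6/J mice aged 5 days and were freed from pooled litters with collagenase. Their Trizol-extracted total RNA was pooled from 3 extractions, converted to biotinylated cRNA and hybridized to an Affymetrix mouse genome array that reads the 3' ends of transcripts. The other 3 arrays of the series, 1 each, came from XBP1 null mice, in which *Col2a1*-Cre deletes an exon of *Xbp1* in chondrocytes, from *Matn3* mutant mice and from double mutants, and none was compared with the wild type array. Whether the wild type mice carried a floxed *Xbp1* allele or a Cre transgene on its own is not stated in the labels or methods read here.

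Chondrocytes are the cells of cartilage, and they make a matrix in which fibrils of collagens II, IX and XI hold the large proteoglycan aggrecan and its bound water. In growing ribs they pass through resting, proliferating and hypertrophic stages at the junction with bone, under the control of hedgehog, parathyroid hormone-related, FGF and BMP signals. The load of secreted protein is handled by the endoplasmic reticulum (ER), whose unfolded protein response runs through the sensors IRE1, PERK and ATF6, with XBP1 as the transcription factor downstream of IRE1.

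Signals were linear and in the arbitrary units of the array. The genes ran between 0.00261 and 18520.0 units with a median of 113. Genes of olfactory, vomeronasal and taste receptors, which belong to sense organs, served as a yardstick of background. The 75 such genes measured had a median of 2.16, and their 95th percentile of 26.7 was taken as the yardstick. The brightest of them read 79.4 units, so a signal between 26.7 and 79.4 does not set a gene apart from them. The yardstick was exceeded by 11674 genes, 64.2% of those ranked. The top decile by signal held 1819 genes (10.0% of all), each with a signal of at least 1668 units. With 1 array there were no replicates, no error across animals and no test. Each probe set hybridizes with an efficiency of its own, so the order is of signal and not of transcript number, and neighbouring ranks cannot be told apart. The only internal spread was that between probe sets of the same gene. Among the 9010 genes with several, the brightest probe set was a median of 2.83 times as bright as the second. Genes named below as the lowest of a list or as under the yardstick, markers of other tissues apart, were chosen after their values were seen, as were *Gas5*, *Hspb1* and *Dusp1*.

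The markers given for the tissue were bright on the array. *Comp*, which encodes the pentameric cartilage oligomeric matrix protein, had a signal of 14727 (rank 26). *Col2a1*, the gene of the main fibril collagen of cartilage, had 10187 (rank 120). *Matn3*, encoding the adaptor protein matrilin-3, had 10185 on its brightest probe set (rank 121) and 2578 on its other. *Acan*, the aggrecan gene, had 7475 (rank 233). The 4 thus lay within the first 233 places of 18193. Some markers of fibrous tissue, given further below, ranked as high, among them *Dcn* (rank 27) and *Col1a2* (rank 70). Of 14 chondrocyte markers in all, 14 were above the yardstick and in the top decile, with a median of 10186 units against 113 for all genes. The lowest were *Sox9*, the master transcription factor of the lineage, at 3826 units and *Matn1*, encoding matrilin-1, at 2622 units.

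The brightest gene was *Fmod*, encoding fibromodulin, a small leucine-rich proteoglycan that binds collagen fibrils, at 18520.0 units. Its other 5 probe sets read 11134, 9685, 8735, 6012 and 433 units, so that 5 of its 6 were bright and 1 was not. *Rps29*, a ribosomal protein gene, followed at 18368 units, and then *Col9a1*, encoding a chain of collagen IX, at 17658 units with a second probe set at 11261. *Cnmd*, whose product chondromodulin is a cartilage glycoprotein that inhibits vessel growth, had 17487 units on its only probe set. The decline over the top was shallow, and *Fmod* was 1.71 times as bright as *Gas5*, a noncoding host of small nucleolar RNAs, which held the 100th place with 10831 units. *Fos*, with 10815 units, was just outside it. The plot of signal against rank shows this plateau and the steep fall beyond the yardstick.

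**Figure D1:**
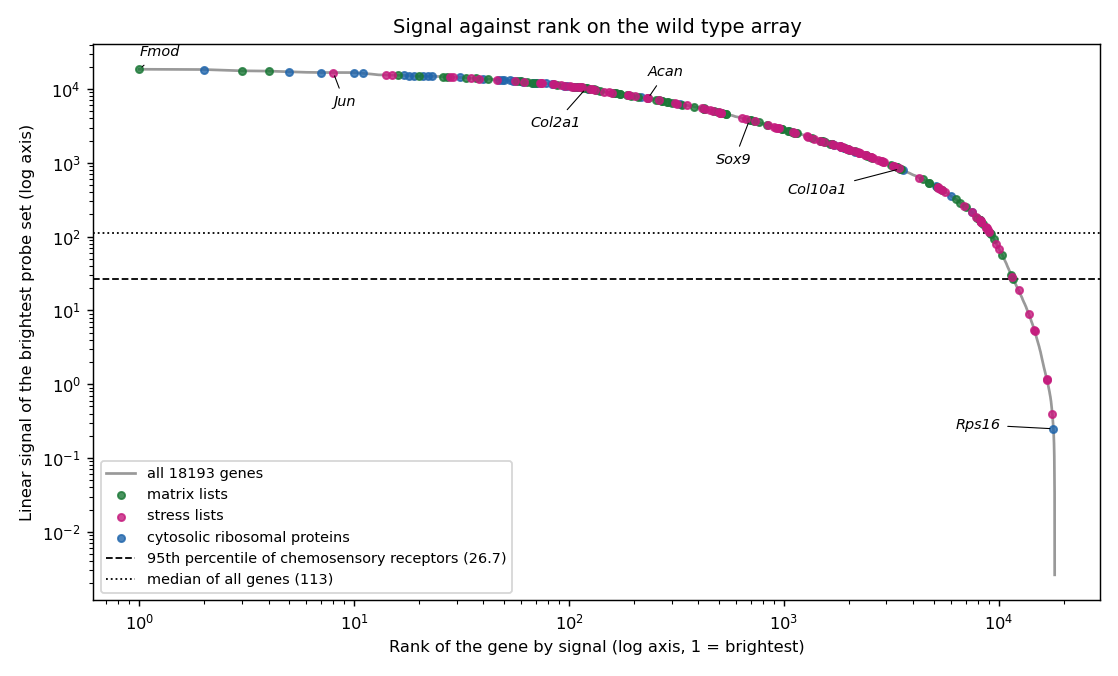
Linear signal of the brightest probe set of each of 18193 genes on the wild type array (log axis) against its rank (log axis, 1 the brightest). The grey line is all genes, points are genes of the matrix lists (green), the stress lists (magenta) and the cytosolic ribosomal proteins (blue), and the horizontal lines mark the yardstick of 26.7 and the median of 113 units; members of all 3 groups share the plateau between 10831 and 18520.0 units.

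The 100 brightest genes (0.550% of all) were made up largely of 3 groups. Genes of ribosomes, cytoskeleton and translation gave 34, genes of the stress lists 17 and genes of the matrix lists 16. A further 5 belonged to the secretory lists, 4 to metabolism, 4 to imprinted genes and 1, *Igf2*, to the growth factors, and 19 were in no list. The make-up rested on the probe sets allowed. Without those whose suffix marks a design that can match more than 1 transcript (_x_at, _s_at and _a_at), 4 of the 100 were of the ribosome, cytoskeleton and translation group and 26 were matrix genes, and *Fmod* stood at rank 41. With the median over the probe sets of a gene, *Cnmd* ranked 1, *Col9a1* 12 and *Fmod* 93. Among the 40 brightest, those of no list included *Tsc22d1*, a leucine zipper factor inducible by TGF-beta, at 15950.3 units, *Ifrd1*, a transcriptional coregulator, at 14788 units, and the linker histone gene *H1f2* at 14386 units. *Akr1a1*, an aldehyde reductase gene, tied with the proteoglycan gene *Bgn* at 14309.6 units, and *Errfi1*, a feedback inhibitor of EGF receptors, had 14031.

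Probe sets of the same gene mostly, but not always, supported its place. Of the 100, 35 had a single probe set and 65 had several. In those 65, the brightest was a median of 1.35 times as bright as the second, 44 lay within 2-fold and 11 were over 10-fold apart. *Pik3cd*, encoding a PI3-kinase subunit best known in leukocytes, was at rank 6 with 16839.9 units on 1 probe set, and its other 5 read 41.8, 14.2, 9.57, 2.15 and 1.18 units. The ribosomal protein gene *Rps4x* had 14334 on 1 probe set and 0.0708 on the other. *Tpt1*, encoding a translationally controlled tumour protein, had 14784 and 1.76, and *Dcn*, encoding the proteoglycan decorin, had 14711 and 132. These high ranks therefore rested on 1 probe set each, as the plot of all probe sets of the 40 brightest genes shows.

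**Figure D2:**
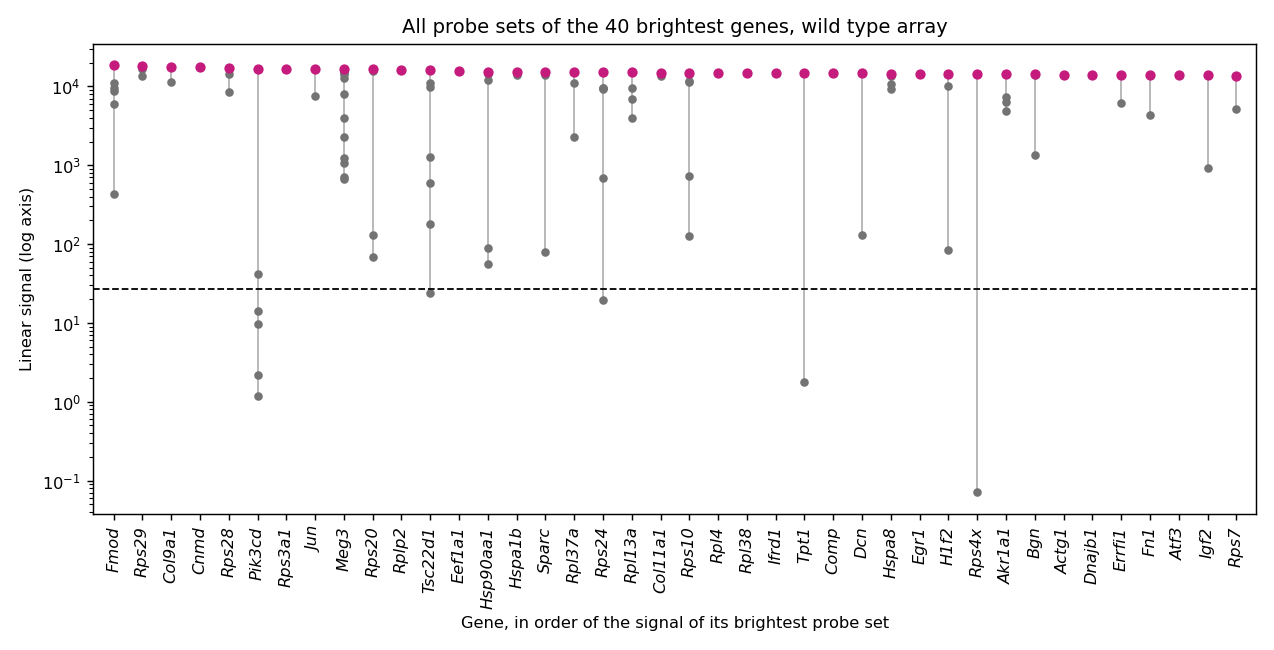
Linear signals (log axis) of every probe set of the 40 brightest genes on the wild type array, in order of the brightest, which is drawn in magenta with the others in grey and a line over their range. The dashed line is the yardstick of 26.7 units; *Cnmd*, *Egr1*, *Comp* and *Atf3* have a single point, while *Pik3cd*, *Tpt1* and *Rps4x* have a second probe set at 41.8, 1.76 and 0.0708 units.

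Matrix genes were bright as a class. Of 105 measured, 104 were above the yardstick and 72 in the top decile, and their median was 3825 units against 113 for all genes. The 11 cartilage collagen genes were all above the yardstick, 10 in the top decile, with a median of 8608 units. After *Col9a1* came *Col11a1*, whose chain nucleates collagen II fibrils, with 14979.5 and 13676 units on its probe sets, *Col9a3* at 12686 and *Col2a1*. *Col10a1*, the collagen of hypertrophic chondrocytes, was the lowest of the 11 at 831 units (rank 3475). Of 14 other collagen genes 13 were above the yardstick, led by *Col1a2* at 12116, *Col3a1* at 10447 and the collagen VI genes *Col6a3* at 9350.3 and *Col6a2* at 8848 units. Collagens I and III belong to perichondrium and other fibrous tissue, while collagen VI surrounds each chondrocyte. *Col15a1*, a basement membrane collagen gene, was under the yardstick at 26.3.

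All 22 genes of proteoglycans and link proteins were above the yardstick and 17 in the top decile, with a median of 7898 units. Small leucine-rich proteoglycans, which bind collagens and set fibril size, took the first 6 places of this list. After *Fmod* and *Dcn* came *Bgn* (biglycan) at 14309.6, *Epyc* (epiphycan, found in growth cartilage) at 13733, *Omd* (osteomodulin) at 12444 and *Lum* (lumican) at 10714 units. *Hapln1*, the link protein that fixes aggrecan to hyaluronan, had 9787 units, above *Acan*. *Vcan*, the versican of early mesenchyme, was far lower at 249.5. These last 2 genes were chosen after their values were seen.

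The 36 matrix glycoproteins and secreted cartilage proteins were likewise all above the yardstick, 24 in the top decile, with a median of 2983 units. Besides *Cnmd* and *Comp*, the brightest were *Sparc*, a collagen-binding glycoprotein, at 15371, and *Fn1*, fibronectin, with 13905 and 4337 units on its probe sets. Of the matrilins, adaptor proteins between fibrils and proteoglycans, *Matn3* was followed by *Matn1* at 2622, *Matn4* at 1511 and *Matn2* at 596 units, the last 3 chosen after their values were seen. Matrix proteases and their inhibitors were above the yardstick in 22 of 22 and in the top decile in 12. The serpin gene *Serpinf1* had 8107 units, the metalloproteinase inhibitor gene *Timp1* 7035, the serine protease gene *Htra1* 5745 and *Timp2*, a further inhibitor, 5431. *Mmp2*, the gelatinase next in order, had 5430.2 and 5023 units on its probe sets. *Mmp13* and *Mmp9*, the collagenase and gelatinase of terminal cartilage, had 469 and 92.1 units, and these 3 metalloproteinases were chosen after their values were seen.

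The secretory lists held 126 genes, with 123 above the yardstick, 84 in the top decile and a median of 2691 units. Of the collagen modifying enzymes, 25 of 25 were above the yardstick and 18 in the top decile. *P4hb*, the disulphide isomerase subunit of prolyl 4-hydroxylase, had 11922 units and *Serpinh1*, the collagen chaperone HSP47, 11854. *Ppib*, the cyclophilin that isomerizes collagen prolines, had 9399, and its partner *Crtap* 7985. All 30 ER chaperones and foldases were above the yardstick and 18 in the top decile. *Hspa5*, the HSP70 of the ER also called BiP, read 13371, 9431 and 604 units on its 3 probe sets. It was followed by the prolyl isomerase gene *Fkbp9* at 11339.7, the ER HSP90 gene *Hsp90b1* at 8027 and the lectin chaperone gene *Calr* at 6835 units.

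Genes of ER entry, glycosylation and vesicle transport were in the top decile in 37 of 46, the largest share among the secretory lists. Their leading members were *Ssr4* of the translocon-associated complex at 11849, though its second probe set read 631, the KDEL receptor gene *Kdelr2* at 8519.8, and *Sec61b* of the protein channel at 7913 units. *Spcs1*, of the signal peptidase, had 7710.4. The member under the yardstick was the cargo receptor gene *Tmed2*, at 8.73 units on its only probe set. Enzymes and transporters of glycosaminoglycan synthesis and sulphation were dimmer, with 23 of 25 above the yardstick, 11 in the top decile and a median of 1000 units. *Ugdh*, which makes UDP-glucuronate, had 7519.9, *Papss2*, which makes the sulphate donor, 7131, the chondroitin sulphotransferase gene *Chst11* 3746, and the hyaluronan synthase gene *Has2* 3176 units. *Xylt2* and *Chst3* were under the yardstick, at 7.54 and 3.44 units.

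**Figure D3:**
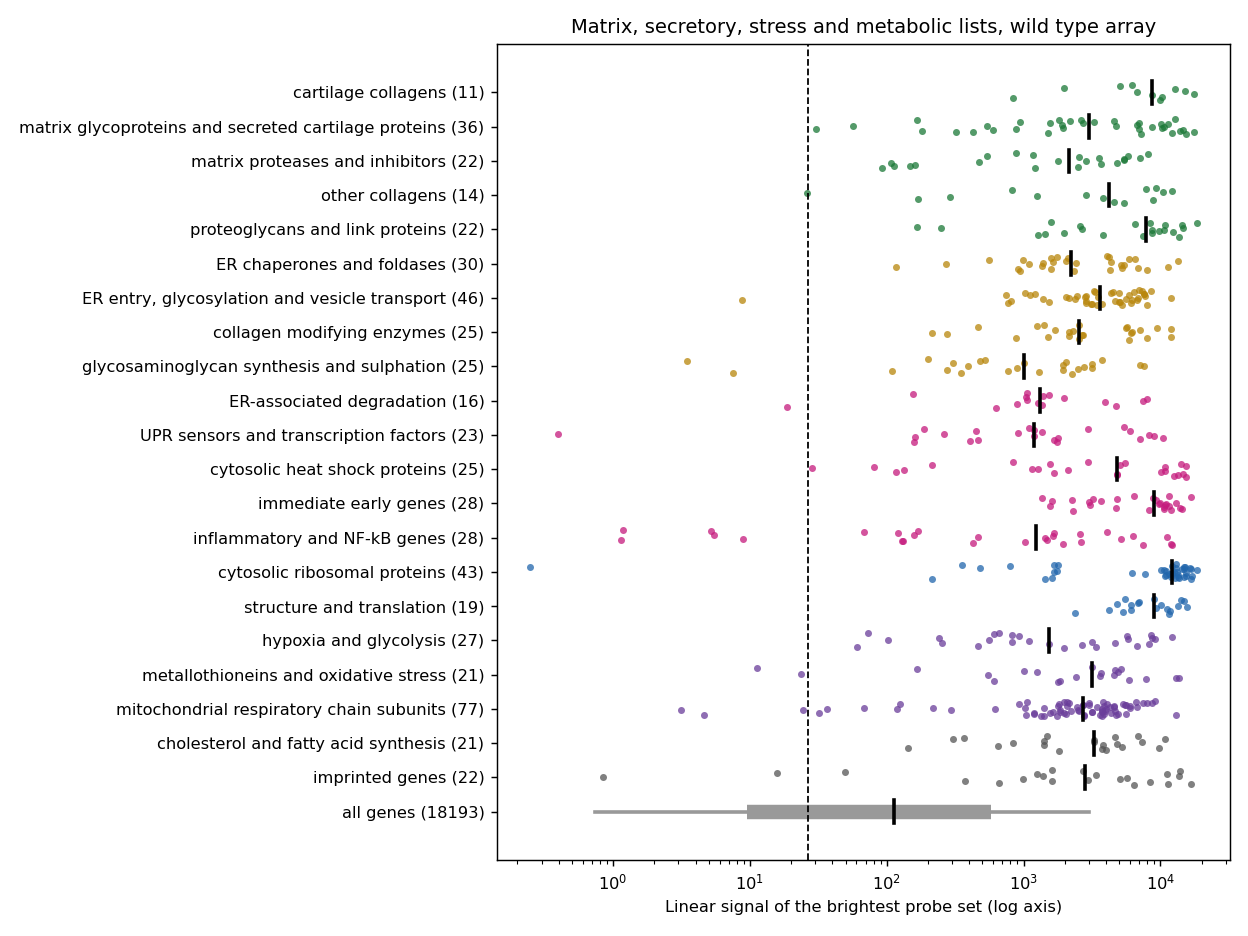
Linear signals (log axis) of the members of the matrix (green), secretory (gold), stress (magenta), housekeeping (blue), metabolism (purple) and added (grey) lists on the wild type array, with the number measured in brackets. Each point is a gene, black bars are medians, the dashed line is the yardstick of 26.7 units, and the lowest line gives the 5th to 95th percentile of all genes with the 25th to 75th percentile as a thick bar; the medians of immediate early genes, at 9037, and of cartilage collagens, at 8608 units, lie far above the 113 of all genes.

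Genes of acute stress were among the brightest on the array. The RNA was of cells freed with collagenase, and intact cartilage was not measured. Whether isolation changed the signals of the stress lists was therefore not tested. All 28 immediate early genes, which are transcribed within minutes of a stimulus, were above the yardstick and 25 were in the top decile, with a median of 9037 units and a lowest value of 1371. *Jun*, of the AP-1 factor, read 16732 and 7616 units on its probe sets and held rank 8. *Egr1*, a zinc finger factor induced by growth factors, had 14471 units (rank 29) and *Atf3*, a repressor induced by stress, 13866 (rank 38). *Ier3*, an immediate early survival gene, had 12989.9. The median of this list exceeded those of the cartilage collagens and of the proteoglycans, as medians of signal.

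Genes listed as cytosolic heat shock proteins were above the yardstick in 25 of 25, with 16 in the top decile and 6 among the 100 brightest. Their median was 4777 units. Many encode chaperones induced by heat and misfolded protein. The list also held *Hspd1* and *Hspe1*, of the mitochondrial chaperonin, and *Hsf2*, a transcription factor, which the counts and median include. *Hspd1* and *Hspe1* were named after their values were seen, and both were in the top decile. *Hsp90aa1*, the inducible HSP90, read 15468, 14387, 12204, 88.2 and 56.3 units on its 5 probe sets. *Hspa1b*, an inducible HSP70, read 15413, 14942 and 13789.7 on its 3, and its near-identical neighbour *Hspa1a* 13399, so that the signals of this pair may be shared. The constitutive HSP70 gene *Hspa8* had 14493 and the cochaperone gene *Dnajb1* 14040.4 and 13785 units on its probe sets. The lowest were *Hspb2* and *Hsf2*, chosen after their values were seen, at 28.3 and 80.0 units.

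Inflammatory and NF-kB genes were split. Of 28, 23 were above the yardstick and 11 in the top decile. The chemokine genes *Cxcl10* and *Cxcl1* had 12053 and 11223 units, the NF-kB inhibitor gene *Nfkbia* 12030.4 and the related *Nfkbiz* 7484. Under the yardstick, and chosen after their values were seen, were the interleukin-1 genes *Il1a* at 5.44 and *Il1b* at 5.22, the nitric oxide synthase gene *Nos2* at 1.18 and the chemokine genes *Cxcl5* at 8.86 and *Ccl3* at 1.14 units.

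Of 23 sensors and transcription factors of the unfolded protein response, 22 were above the yardstick and 9 in the top decile. *Atf4*, translated when PERK is active, read 10502, 7724 and 6.31 units on its 3 probe sets and *Cebpb*, a leucine zipper factor, 9025. *Xbp1* itself read 8183, 6353, 2297 and 92.8 units on its 4 probe sets (rank 190), and *Ddit3*, encoding CHOP, read 7047 and 1966. The sensor genes were chosen after their values were seen. *Eif2ak3* (PERK) read 1189.9, 48.5 and 27.9 units on its 3 probe sets. *Ern1* (IRE1) read 465 on the brightest of its 5, 108 on the second and 5.86 on the lowest. *Atf6* read 187, 141 and 86.8 on its 3 probe sets. *Atf6b* had 263 and *Ern2*, an IRE1 of gut and airway epithelium, 0.394 units. The order of the sensor genes thus depended on the probe set. In ER-associated degradation, 15 of 16 genes were above the yardstick and 5 in the top decile, led by *Herpud1* at 7947, *Selenos* at 7496, the ATPase gene *Vcp* at 4764 and *Derl1* at 3949 units. *Derl3* was under the yardstick at 18.7, chosen after its value was seen.

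Promoters of the brightest genes were searched for short motifs, as something that the signal rank did not use. Windows of 250 bases before to 50 after the start (RefSeq, mouse build GRCm38.p6) were at hand for 83 of the 100 brightest genes and for 14452 of all 18193. The letters TATAAA, sought on the coding strand between 40 and 20 bases before the start, were found in 2.41% of the 83 and in 2.70% of all. CCAAT, on either strand anywhere in the window, was found in 42.2% of the 83 and in 42.0% of all, and ACAAAG, letters bound by SOX factors, in 12.0% and 18.3%. GAANNTTC, the core of heat shock elements, was present in 13.3% of the 83, in 11 of the 21 heat shock genes with a window (52.4%) and in 7.60% of all. TGACGTCA, the cAMP response element, was present in 8.43% of the 83 and in 2.92% of all. Both of these read the same on either strand, and both were added after earlier results were known. A match describes letters and is no site of binding.

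The 6 windows below were chosen to show the start regions of the brightest gene, of the matrilin whose mutation the series studies, and of bright stress genes that held a motif. Capitals mark CCAAT or its reverse complement in *Fmod* (chr1:134037004-134037303, + strand) and *Matn3* (chr12:8947679-8947978, + strand), GAANNTTC in *Hspa1b* (chr17:34959189-34959488, - strand) and *Hspb1* (chr5:135887669-135887968, + strand), TATAAA in *Fos* (chr12:85473640-85473939, + strand) and TGACGTCA in *Dusp1* (chr17:26508423-26508722, - strand). No marked motif overlapped another of the 5.
Fmod: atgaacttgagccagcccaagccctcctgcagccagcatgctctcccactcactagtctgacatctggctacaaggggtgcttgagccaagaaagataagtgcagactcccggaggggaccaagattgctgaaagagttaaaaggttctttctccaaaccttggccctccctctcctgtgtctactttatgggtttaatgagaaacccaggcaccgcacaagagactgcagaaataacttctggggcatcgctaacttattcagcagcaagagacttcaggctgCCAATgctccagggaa
Matn3: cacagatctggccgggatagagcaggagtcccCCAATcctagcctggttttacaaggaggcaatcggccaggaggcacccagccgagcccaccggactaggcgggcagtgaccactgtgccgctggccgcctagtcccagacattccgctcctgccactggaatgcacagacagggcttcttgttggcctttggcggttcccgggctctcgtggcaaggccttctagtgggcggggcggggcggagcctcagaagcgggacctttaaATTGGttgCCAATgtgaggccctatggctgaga
Hspa1b: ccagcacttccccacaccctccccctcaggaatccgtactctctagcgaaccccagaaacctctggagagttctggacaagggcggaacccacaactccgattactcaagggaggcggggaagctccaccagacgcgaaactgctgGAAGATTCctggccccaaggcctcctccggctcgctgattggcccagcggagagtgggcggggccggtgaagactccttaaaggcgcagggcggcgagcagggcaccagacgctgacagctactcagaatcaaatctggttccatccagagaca
Hspb1: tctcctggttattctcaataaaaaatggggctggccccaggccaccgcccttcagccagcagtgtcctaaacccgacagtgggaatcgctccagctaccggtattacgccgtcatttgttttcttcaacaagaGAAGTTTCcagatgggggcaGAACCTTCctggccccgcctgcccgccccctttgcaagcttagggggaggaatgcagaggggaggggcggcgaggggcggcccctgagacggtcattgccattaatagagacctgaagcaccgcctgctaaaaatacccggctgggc
Fos: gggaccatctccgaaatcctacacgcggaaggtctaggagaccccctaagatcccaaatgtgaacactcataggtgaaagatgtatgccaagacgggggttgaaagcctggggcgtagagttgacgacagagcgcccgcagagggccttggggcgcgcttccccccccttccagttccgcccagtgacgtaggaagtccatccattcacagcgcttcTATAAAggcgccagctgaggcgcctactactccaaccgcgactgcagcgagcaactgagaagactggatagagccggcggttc
Dusp1: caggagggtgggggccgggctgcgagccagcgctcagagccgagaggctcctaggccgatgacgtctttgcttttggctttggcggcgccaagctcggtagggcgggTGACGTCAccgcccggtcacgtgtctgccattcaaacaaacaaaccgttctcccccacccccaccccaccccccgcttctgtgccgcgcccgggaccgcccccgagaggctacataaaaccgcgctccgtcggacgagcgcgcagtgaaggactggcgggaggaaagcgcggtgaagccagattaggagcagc
The heat shock core began 104 bases before the start in *Hspa1b*, and 117 and 97 bases before it in *Hspb1*, a small heat shock protein gene with 12519.6 and 12274 units on its probe sets. The windows of *Hspa1b* and *Hspa1a* were identical at 296 of 300 bases. In *Fos* the TATAAA began 33 bases before the start, and in *Dusp1*, a MAP kinase phosphatase gene with 11949 units, the TGACGTCA began 143 bases before it. *Matn3* held CCAAT letters 218 bases before the start and at bases 18 and 26 of the transcript, the one at 18 on the opposite strand, and *Fmod* at base 35.

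Genes that every cell uses were bright, with exceptions that show what a low signal can mean. The 19 genes of structure and translation were all in the top decile, led by *Eef1a1*, a translation elongation factor, at 15555, *Tpt1*, and the actin genes *Actg1* at 14104 and *Actb* at 13445 units. Of 43 cytosolic ribosomal protein genes, 42 were above the yardstick, 35 in the top decile and 27 among the 100 brightest. After *Rps29* the leading ones were *Rps28* at 17116, *Rps3a1* at 16735 and *Rps20* at 16699 units. Others among the 40 brightest genes lay between 13756 (*Rps7*) and 16322 (*Rplp2*) units: *Rpl37a*, *Rps24*, *Rpl13a*, *Rps10*, *Rpl4*, *Rpl38* and *Rps4x*. *Rps16*, needed by every ribosome, read 0.249 on its only probe set, so a low signal here was not a sign that a transcript was absent. Ribosomal protein genes have many near-identical processed copies in the genome, and their probe sets are often of the kinds with a suffix.

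Metabolic genes were mostly bright. All 27 genes of hypoxia and glycolysis were above the yardstick and 13 were in the top decile. The glucose transporter gene *Slc2a1* had 12096, the lactate dehydrogenase gene *Ldha* 9128, the oxygen-regulated factor gene *Hif1a* 8653 and the glycolytic kinase gene *Pgk1* 8527 units. Of 77 respiratory chain subunits 74 were above the yardstick and 55 in the top decile, with a median of 2725 units, and *Uqcrb* of complex III led at 13019, before *Cox6a1* and *Cox7a2* of complex IV at 9096 and 8722 and *Uqcrh* at 7934. Metallothioneins, small metal-binding proteins, led the oxidative stress list with *Mt1* at 13749.6 and 1916 units on its probe sets and *Mt2* at 13070.3. They were followed by thioredoxin, *Txn1*, with 7895 and 0.475 on its probe sets and the ER peroxiredoxin gene *Prdx4* at 5879. Of the 21 genes, 19 were above the yardstick.

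A further pair of groups was listed after the ranks were known. Of 22 imprinted genes, which are transcribed from the copy of a single parent, 20 were above the yardstick, 12 in the top decile and 5 among the 100 brightest. *Meg3*, a noncoding RNA made from the maternal copy, read between 669 and 16721 units on its 11 probe sets. *Igf2*, a fetal growth factor made from the paternal copy, read 13835 and 927, *Plagl1*, a zinc finger factor, 13642, and *Peg3*, a further zinc finger factor, 11276 units. Genes of cholesterol and fatty acid synthesis were above the yardstick in 21 of 21 and in the top decile in 13. *Hmgcs1*, an early enzyme of the sterol pathway, had 10779.5, the desaturase gene *Scd2* 9723, and the sterol enzyme genes *Msmo1* and *Fdft1* 7279 and 6870.5 units.

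The receptor lists, which cover signalling and adhesion receptors, had lower signals than the matrix and stress lists. Of 128 measured, 105 were above the yardstick, 20 in the top decile and 0 among the 100 brightest, with a median of 379 units against 113 for all genes. Of all genes, 64.2% were above the yardstick and 10.0% in the top decile. Signals are of the brightest probe set, and other probe sets are given for some genes only. In the FGF family, *Fgfrl1*, a receptor without a kinase domain, had 4521 units and *Fgfr3*, the brake on chondrocyte proliferation, 3529 and 156 on its probe sets. *Fgfr1* had 2320.0, *Fgfr2* 1390.3 and *Fgfr4* 313, while the coreceptor gene *Klb* was under the yardstick at 1.70. Among the receptors of growth hormone, insulin and IGF, *Igf2r*, which clears IGF2, had 3403 and *Ghr* 2359, above *Igf1r* at 904 and *Insr* at 446 units. On its other probe sets *Insr* read 25.9 and 0.672.

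In the hedgehog and parathyroid hormone group, *Gas1* and *Cdon*, coreceptors of hedgehog, had 2355 and 1554 units. *Pth1r*, the receptor of parathyroid hormone-related protein, had 1235, *Smo*, the signal transducer, 1204 and *Boc* 989. *Ptch1*, the receptor and target of hedgehog, read 986, 35.2 and 15.6 on its 3 probe sets. *Hhip* and *Pth2r* were under the yardstick at 25.8 and 11.1. The hedgehog ligand of cartilage, *Ihh*, read 17.1 units on its only probe set, under the yardstick, whereas its effector genes *Gli2*, *Gli3* and *Gli1* had 927, 619 and 173. The 4 were chosen after their values were seen.

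BMP and TGF-beta receptors were above the yardstick in 11 of 13. *Tgfbr3*, a coreceptor, had 2357 and 0.874 units on its probe sets. The type I receptor gene *Acvr1* had 2292, and the type II receptor genes *Tgfbr2* and *Bmpr2* 1706 and 1698 units. *Tgfbr1*, *Bmpr1a*, *Acvr1b*, *Bmpr1b* and *Acvr2a* lay between 326 and 1236, and the endothelial receptors *Eng* and *Acvrl1* were low, at 53.8 and 26.7. On its other probe sets *Tgfbr1* read 22.8 and 19.2. Of 18 WNT receptors 16 were above the yardstick. *Lgr4*, a receptor of R-spondins, led with 2090.2 and 3.97 units on its probe sets. It was followed by *Fzd7* with 1908 and 1.97 on its probe sets, *Ryk* at 1164 and *Fzd9* at 1098. The other 12, from *Lrp6* at 930.3 to *Fzd4* at 55.7, were *Fzd1*, *Ror2*, *Fzd2*, *Fzd3*, *Fzd5*, *Ror1*, *Lgr6*, *Fzd6*, *Fzd8* and *Lgr5* between them. All 4 Notch receptors were above the yardstick. *Notch2* had 1006 and 1.26 units on its probe sets, *Notch1* 254, *Notch3* 161 and *Notch4* 49.7.

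Matrix and mechanical receptors were above the yardstick in 18 of 22 (81.8%, against 64.2% of all genes). *Piezo1*, a stretch-gated channel, had 2686 units and *Itga10*, the collagen-binding integrin subunit typical of chondrocytes, 2526, followed by *Itgb5* at 2458 and *Itgav* at 2311. *Itgb1*, the common partner subunit, had 1458, and *Trpv4*, a channel gated by osmotic change, 999. The rest above the yardstick were *Cd151*, *Ddr2*, *Cd44*, *Itga6*, *Itga5*, *Ddr1*, *Itga1*, *Itga8*, *Itga2b*, *Piezo2*, *Itgb8* and *Itga3*, between 67.4 and 1855. *Adgrg6*, an adhesion receptor known for its part in myelination and in the cartilage of the spine, was second among the genes of the receptor lists at 4392. In its group *Lpar1*, *Npr2* (the receptor of C-type natriuretic peptide), *Adgrg2*, *Ptger4*, *Npr3* and *Ednrb* lay between 31.2 and 1102 units.

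Cytokine receptors were above the yardstick in 11 of 12. *Tnfrsf12a*, the receptor of TWEAK, had 3899, the shared IL6 receptor subunit gene *Il6st* 1999.6, *Osmr* 1503 and the decoy receptor gene *Tnfrsf11b* (osteoprotegerin) 1339.6 units. *Tnfrsf1a*, *Ifngr1*, *Tnfrsf1b*, *Ifnar1*, *Lifr*, *Il1r1* and *Il6ra* lay between 44.3 and 1200.2. Of 17 nuclear hormone receptors 13 were above the yardstick (76.5%, against 64.2% of all genes). They were led by *Rora* at 1553, the thyroid receptor gene *Thra* at 1109, the glucocorticoid receptor gene *Nr3c1* at 1038 and *Nr1d1* at 765. *Rxrb*, *Esr1*, *Rarg*, *Vdr*, *Pparg*, *Nr2f2*, *Rxra*, *Ppard* and *Thrb* lay between 65.2 and 435. Other receptor tyrosine kinases were above the yardstick in 10 of 14 (71.4%), near the 64.2% of all genes. The PDGF receptor genes *Pdgfrb* and *Pdgfra* were at 1125 and 719. *Met* had 674 and 0.716 units on its probe sets, and *Epha3* had 442. *Axl*, *Egfr*, *Ntrk2*, *Ephb4*, *Erbb3* and *Erbb2* lay between 45.3 and 222 units.

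Growth factor genes were above the yardstick in 29 of 33 with a median of 170 units, and 6 were in the top decile. After *Igf2* came *Hbegf*, a ligand of EGF receptors, at 5315 and *Bmp2*, a driver of cartilage differentiation, at 3549 units. The activin subunit gene *Inhba* had 2775 and 0.511 units on its probe sets. Secreted antagonists and binding proteins had 27 of 33 above the yardstick and 11 in the top decile. *Ccn2*, a matricellular protein also counted as an immediate early gene, had 11536, the WNT inhibitor gene *Wif1* 9022, *Igfbp7* 8987 and *Ccn1* 8872 units. A further WNT antagonist, *Frzb*, had 7160.3, chosen after its value was seen.

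**Figure D4:**
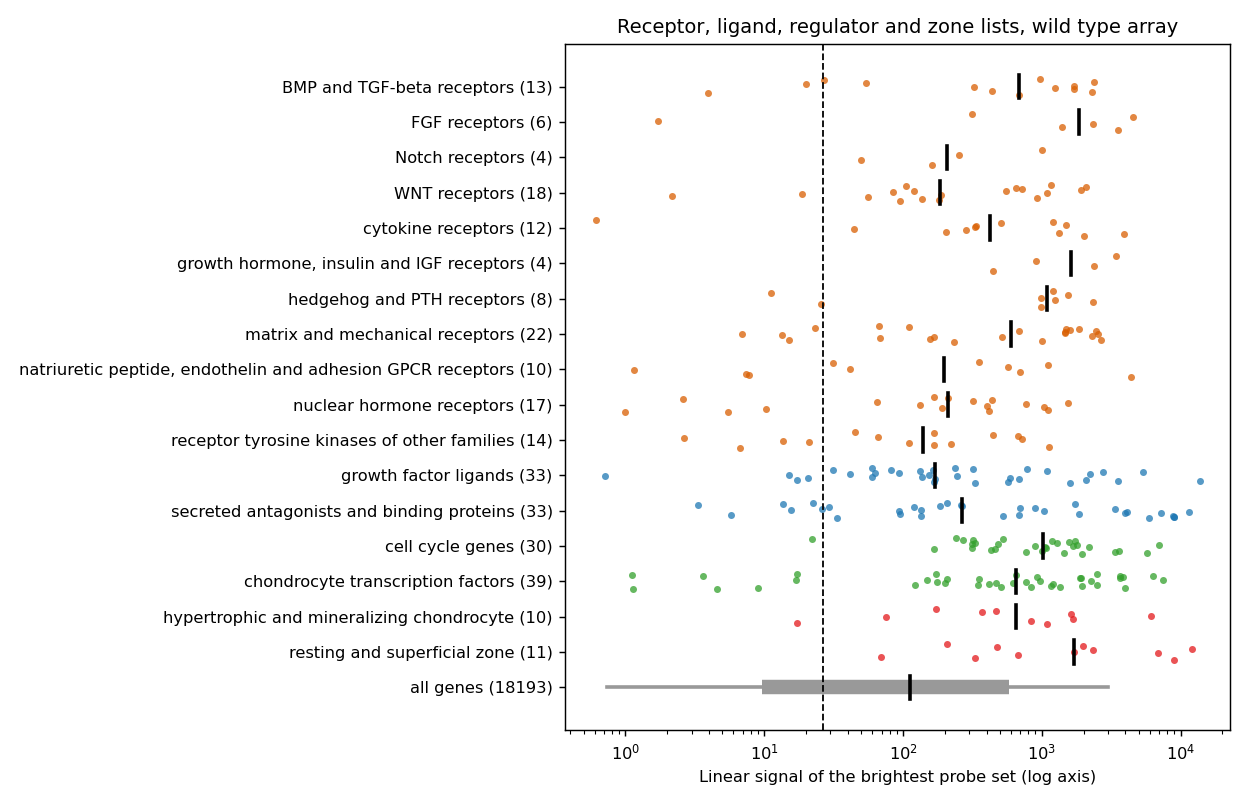
Linear signals (log axis) of the members of receptor (orange), ligand and antagonist (light blue), regulator (green) and zone (red) lists on the wild type array, with the number measured in brackets. Each point is a gene, black bars are medians, the dashed line is the yardstick of 26.7 units and the lowest line gives the 5th to 95th percentile of all genes; no gene of the receptor lists exceeds the 4521 units of *Fgfrl1*.

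Among 39 transcription factors of chondrocytes and limb development, 32 were above the yardstick and 12 in the top decile. The brightest were *Id3*, *Id1* and *Id2*, inhibitors of helix-loop-helix factors induced by BMP, at 7456, 6284 and 3974 units, and then *Sox9*, with 3826, 2533 and 175 on its probe sets. Its partners *Sox6* and *Sox5* had 771 and 414, and *Nkx3-2*, a repressor of cartilage maturation, was under the yardstick at 1.11. These 3 were chosen after their values were seen. Cell cycle genes were above the yardstick in 29 of 30, with *Pcna* of the replication fork at 6943, the cell cycle inhibitor genes *Cdkn1c* and *Cdkn1a* at 5683 and 3342 and the cyclin gene *Ccnd2* at 3586 units.

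Genes listed for both ends of the growth plate were mostly above the yardstick. Of 11 genes of the resting and superficial zones, 11 were above the yardstick and 6 in the top decile, led by *Ucma*, a small secreted protein of resting chondrocytes, at 12163, *Wif1*, *Cytl1* at 6918 and *Gas1*. Of 10 genes of hypertrophy and mineralization 9 were above the yardstick, but 2 were in the top decile. These were the phosphate transporter gene *Slc20a1* at 6134 and the pyrophosphate transporter gene *Ank* at 1668 units. The channel gene *Panx3* read 1628, 4.46 and 0.987 on its 3 probe sets, and *Vegfa* had 1088. The rest, named after their values were seen, were *Col10a1* at 831, *Mmp13* at 469, *Slc20a2* at 371, *Alpl* at 172 and *Ibsp* at 75.8. *Ihh* was under the yardstick at 17.1, and *Spp1*, *Runx2*, *Phospho1* and *Enpp1* had no probe set of their own. The median was 1706 units in the resting and superficial list and 650 in the hypertrophic list, and the lists were not tested against each other. In RNA of a whole cartilage, fewer cells of a type and less RNA per cell cannot be told apart.

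Most markers of other tissues were under the yardstick, but those of fibrous tissue and smooth muscle were mostly above it, as were 64.2% of all genes. Of 180 markers of 17 other tissues, 61 were above the yardstick, 12 in the top decile and 2 among the 100 brightest, and their median was 9.84 units against 113 for all genes. The 17 markers of perichondrium, tendon and fibroblasts were all above the yardstick, and 8 were in the top decile, with a list median of 719 units. After *Dcn*, *Col1a2*, *Lum* and *Col3a1* came *Fap*, a protease of activated fibroblasts, at 10224, *Postn*, encoding periostin, at 8639.9 and *Tnmd*, the tendon relative of chondromodulin, at 4107 units, these 3 chosen after their values were seen. Outside the top decile were *Pdgfra* at 719, *Mkx* at 211, *Scx* at 197, *Thy1* at 169, *Mfap5* at 166 and *Twist1* at 117 units. *Twist2*, *Dpt* and *Cd248* were lower still at 66.7, 55.3 and 39.5, and all of these were named after their values were seen. Some members of this list, *Dcn* and *Lum* among them, are also made by chondrocytes. Of 9 markers of smooth muscle and pericytes 8 were above the yardstick, but the list median was 161 units against 113 for all genes. *Acta2*, smooth muscle actin, read 4333, 7.78 and 4.27 units on its 3 probe sets. *Cspg4* had 2584, *Rgs5* 1143 and *Tagln* 392, while the myosin gene *Myh11* was under the yardstick at 13.7.

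Of 8 markers of osteoblasts and osteocytes, 5 were above the yardstick (62.5%), near the 64.2% of all genes. *Col1a1*, a collagen gene of bone and fibrous tissue, had 4591 and 2239 units on its probe sets. The next were *Sp7*, the osteoblast master factor, at 133, *Ibsp* at 75.8 and *Ifitm5* at 51.4. Neither *Ibsp* nor *Ifitm5* exceeded the brightest yardstick gene, at 79.4 units. *Dmp1*, of osteocytes, was close to the yardstick at 29.3, and *Phex*, *Sost* and *Mepe* were under it at 16.5, 13.6 and 0.723 units. Of 10 osteoclast markers 4 were above the yardstick: *Nfatc1* at 1884, the collagen-degrading protease gene *Ctsk* at 876, *Acp5*, of the acid phosphatase TRAP, at 303 and *Mmp9*. The fusion genes *Dcstamp* and *Ocstamp* and the calcitonin receptor gene *Calcr*, which are close to restricted to osteoclasts, were at 0.800, 3.34 and 3.56.

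Skeletal muscle, which adjoins the ribs, had 5 of 19 markers above the yardstick. The troponin gene *Tnnt3* stood apart at 2779.9 units on its only probe set, before the actin gene *Acta1* at 226, the troponin gene *Tnni2* at 165, the myogenic factor gene *Myod1* at 73.9 and the fast myosin light chain gene *Mylpf* at 57.0. The contractile genes of the list were thus mixed. Under the yardstick were the troponin gene *Tnnc2* at 12.3, the myosin light chain gene *Myl1* at 4.44 and the myosin heavy chain genes *Myh3* and *Myh8* at 1.54 and 0.837, as was *Ckm*, the muscle creatine kinase gene, at 4.61 units.

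Most markers of blood cells, vessels and nerves were under the yardstick. Of those above it, *Hba-a2*, *Slc4a1*, *Ngp*, *Ighm* and *Cd8a* did not exceed the brightest yardstick gene, at 79.4 units. Of 10 erythroid markers, 4 were above the yardstick: the globin genes *Hbb-b2* at 194 and *Hba-a2* at 35.8, the haem synthesis gene *Alas2* at 83.1 and the red cell anion exchanger gene *Slc4a1* at 34.9 units. *Hba-a1* read 0.778. In the macrophage list 4 of 13 were above the yardstick, *Cd68* at 302, *Csf1r* at 108, *Laptm5* at 103 and *Lyz2* at 98.2, and the complement genes *C1qa*, *C1qb* and *C1qc* read 0.454, 8.49 and 0.274. Of 11 neutrophil markers *Ngp* alone was above it, at 51.9, with *S100a8* and *Elane* at 21.6 and 0.519. Of 13 lymphocyte markers 2 were above it, *Ighm* at 45.3 and *Cd8a* at 35.6, with the T and B cell genes *Cd3e* and *Cd79a* at 0.937 and 11.9.

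Endothelium had 1 of 14 markers above the yardstick, *Egfl7* at 179. *Pecam1*, *Cdh5*, *Tek* and *Kdr*, which define endothelial cells, were at 0.136, 12.3, 6.68 and 21.0 units. For Schwann cells and neurons 1 of 9 was above it, the myelin gene *Mbp* at 161, and *Sox10* read 11.6. No marker of 8 for mast cells, 8 for mesothelium or 6 for liver was above the yardstick, and their defining genes *Cpa3*, *Msln* and *Alb* read 0.153, 1.85 and 10.2.

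Epithelial, skin and fat markers also lay on both sides of the yardstick. *Epcam*, an adhesion protein of epithelia, read 672 and 663 units on its probe sets, while the keratin genes *Krt18* and *Krt8* and the cadherin gene *Cdh1* had 102, 91.2 and 73.7, and the lung gene *Sftpc* 2.12. In skin *Krt10* had 463, *Krt5* 65.1 and *Lor* 48.6, while *Krt14* and *Krt1* were under the yardstick at 12.4 and 0.479. In the adipocyte list *Fabp4*, *Cidea* and *Pparg* had 493, 451 and 209, while *Adipoq*, which defines fat cells, read 6.62. The epithelial list was thus split between general epithelial genes above the yardstick and lung genes under it, and the other 2 lists held members on both sides.

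**Figure D5:**
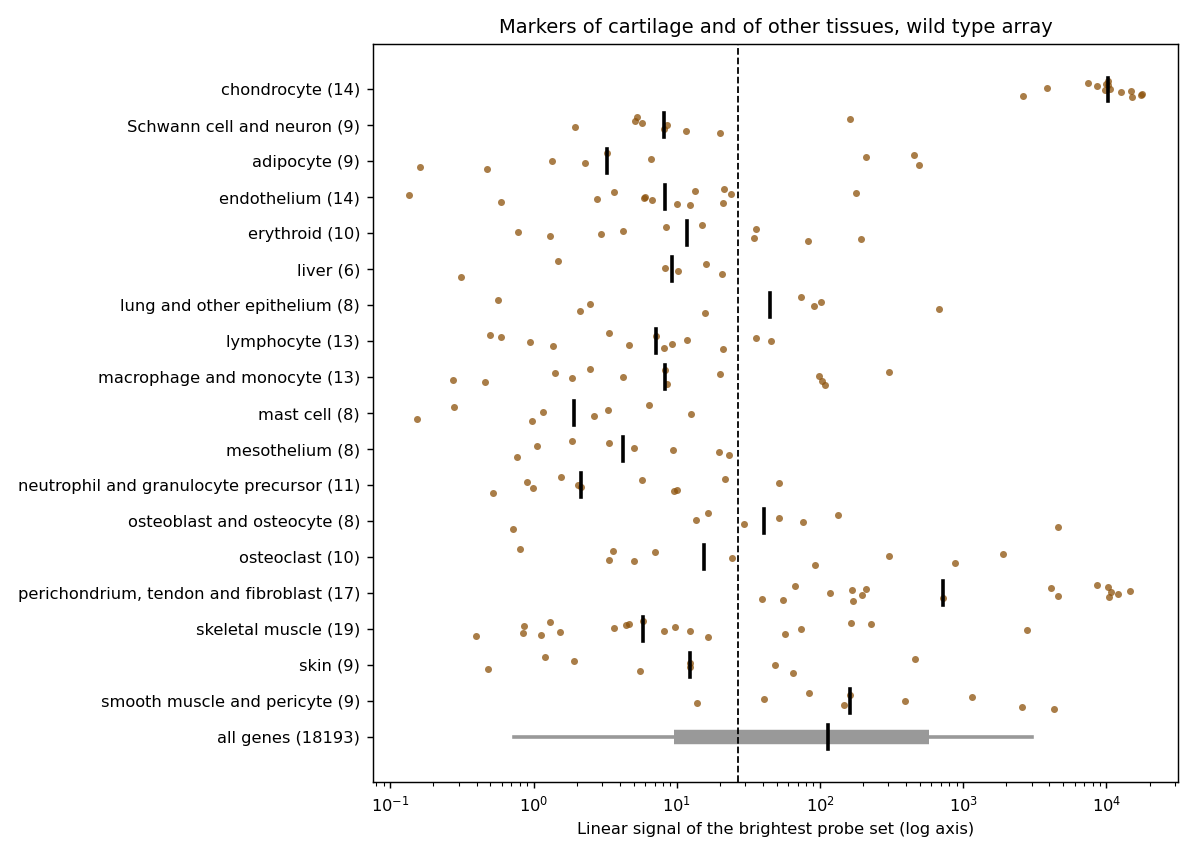
Linear signals (log axis) of markers of cartilage (top) and of 17 other tissues on the wild type array, with the number measured in brackets. Each point is a gene, black bars are medians, the dashed line is the yardstick of 26.7 units and the lowest line gives the 5th to 95th percentile of all genes; chondrocyte markers lie between 2622 and 17658 units, while most other lists have medians under the yardstick.

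Genes of both sexes were present, as in RNA of pooled litters. *Xist*, the RNA of the inactive X chromosome, read 7393, 3581 and 1045 units on its 3 probe sets. The Y-linked genes *Eif2s3y*, *Kdm5d* and *Uty* had 484, 151 and 135 units on their brightest probe sets, all above the yardstick. Their second probe sets read 21.8, 18.6 and 59.8 units, none above the brightest yardstick gene at 79.4.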

How the data were processed

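Values of 1 array, that of wild type rib chondrocytes, were used, and the other 3 arrays entered 1 alternative only. The authors deposited linear signal intensities of 45037 probe sets. The methods name Microarray Suite 5 for control hybridizations and the PPLR package for differences between arrays, which was not applied here. The steps of summarization and scaling were not given in the sources used here. A scaling that keeps the order of values changes no rank within an array, while another summarization could. The number of arrays limits the precision.

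Of the probe sets, 34945 name 1 gene, 932 name several and 9160 name none (platform annotation, symbols checked in a RefSeq gene table, which lacked those of 204 probe sets). Those naming several genes were set aside. The brightest probe set stood for each of 18193 genes, ranked by intensity. The yardstick was the 95th percentile of 75 chemosensory receptor genes. Lists were described by counts above it, in the top decile and among the 100 brightest, and by medians, with no test, since each genotype has 1 array. Named were the 40 brightest genes, the 4 brightest of each list, receptors above the yardstick, defining tissue markers under it and sex-linked genes, and other genes are said to have been chosen after their values were seen. List genes without a probe set of their own were not analysed here. Members and lists were chosen with earlier results of these data known, and the lists of imprinted genes and of cholesterol and fatty acid synthesis and 2 promoter motifs were added later. Alternatives changed the probe set that stood for a gene, the probe sets allowed and the yardstick. The brightest signal, its probe set and the rank of each gene were checked on simulated data, and counts were not. Python 3.11.15, pandas 2.3.3, numpy 2.4.6 and matplotlib 3.10.9 were used.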

Additional observations from a re-analysis of the deposited data

Results flagged for a closer look

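Probe sets that name no gene carried signal that the ranks of genes leave out. Of 9160 such probe sets, 3339 exceeded the yardstick of 26.7 units (36.5%) and 21 exceeded the signal of the gene at rank 100, and the brightest read 16161 units. Probe sets that name several genes were likewise left out, and 577 of 932 exceeded the yardstick and 67 the signal at rank 100. The brightest of them names *Rpl23* among others and read 16315 units.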

How the results depend on the processing

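Over 7 alternatives the genes above the yardstick numbered between 10127 and 11958, against 11674. Of the 100 brightest genes, 99 were kept with the probe set of highest mean over the 4 arrays, 74 with the median over probe sets, 84 without suffixes _x_at and _s_at, 66 with probe sets of several genes added and 45 without _x_at, _s_at and _a_at, where 32 had no probe set left. With the median over probe sets, 1 gene of the ligand lists and 0 of the added lists were among the 100 brightest, against 2 and 5. Without suffixes _x_at and _s_at (an alternative chosen after seeing the data), 4 markers of other tissues were, against 2. Without all 3 suffixes, 26 matrix, 4 housekeeping, 2 metabolic and 5 other-tissue genes were among them, against 16, 34, 4 and 2, and 30 housekeeping genes were above the yardstick, against 61. Other counts by class stayed within 1.5 times, but counts above the yardstick in single lists moved by more in 9 of 58 lists without the 3 suffixes, 5 with the 99th percentile as yardstick, 4 with the median over probe sets, 3 with the median of all probe sets as yardstick and 1 without _x_at and _s_at. Ranks of named genes moved by more for 40 of 43 with the median over probe sets and for 29 of the 30 still measured without the 3 suffixes. No paired analysis was possible because each genotype has 1 array, and for the same reason no replicate could be left out. Low signals cannot be told from poor probes.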
